A study of Mus musculus with 4 samples.

Results

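The genes described here build the apical pole and the outer limiting membrane of the retina. They were listed by name, with no limit set on any measured value, and comprise *Crb1*, *Crb2*, *Mpp4*, *Mpp5*, *Pard3*, *Prkci*, *Tjp1*, *Cdh2*, *Ctnnb1* and *Ctnna1*, which are 10 of the 24322 gene symbols in the files. All 10 reached a mean of at least 1 FPKM, the limit for testing, as did 12363 symbols in all. FPKM relates the fragments on a gene to the length of its exons and to the depth of the library, so that levels can be compared between genes. Values are given in 1 order throughout, control mouse 7984 before 3911 and *Rax* iCKO mouse 7983 before 3914.

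The libraries came from mTFP-positive cells sorted from the retinas of 4 mice on a 129S6 background, 1 library per mouse. The 2 control mice, numbers 7984 and 3911, were Raxflox/WT, and the 2 *Rax* iCKO mice, numbers 7983 and 3914, were Raxflox/flox. Every mouse also carried Rlbp1-CreERT2 and R26-CAG-LoxP-mTFP1 and was given tamoxifen at P4, with the retinas harvested at P14, so that the controls differ from an untreated wild-type retina in these alleles, in the drug and in 1 *Rax* allele. A promoter fragment of *Rlbp1* drives CreERT2, and the study names the pigment epithelium as a further site of recombination. The comparison asks whether loss of *Rax*, a homeobox gene of Müller glia, changes the RNA of the apical junction genes in these cells.

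Müller glia and photoreceptors are joined near the photoreceptor inner segments by a belt of adherens junctions, which forms the outer limiting membrane. N-cadherin, with the catenins that tie it to actin, holds neighboring cells together there. Just apical to the belt lies the Crumbs complex, a transmembrane Crumbs protein with its membrane-associated guanylate kinase partners, and the Par complex with atypical protein kinase C helps to set the border between the apical membrane and the junction. Loss of Crumbs proteins in the mouse retina disrupts the outer limiting membrane.

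The genes spanned a wide range of levels in the sorted cells, as the plot of FPKM by library shows. *Cdh2* was highest, with a mean of 128.3 FPKM over the 4 libraries, followed by *Ctnnb1* at 104 FPKM and *Crb1* at 74.5 FPKM. The libraries of neighbors within this upper trio overlapped, whereas every *Crb1* value lay above every value of *Ctnna1*, the next gene at 25.5 FPKM. *Prkci*, *Mpp4* and *Tjp1* followed at 18.8, 15.4 and 12.02 FPKM, each overlapping with its neighbor. All *Tjp1* values lay above all those of *Mpp5*, at 7.61 FPKM. *Pard3* at 5.85 FPKM overlapped with *Mpp5*, and *Crb2* was lowest at 3.22 FPKM and overlapped with *Pard3*. Against all genes tested, the mean of *Cdh2* lay at percentile 93.3 and that of *Crb2* at percentile 17.0. With the depth estimated from the whole-read steps of the low FPKM values, between 9260000 and 12710000 mapped reads in a library, *Crb2* rested on about 113 to 364 reads per library and *Cdh2* on about 4841 to 9188.

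**Figure D1:**
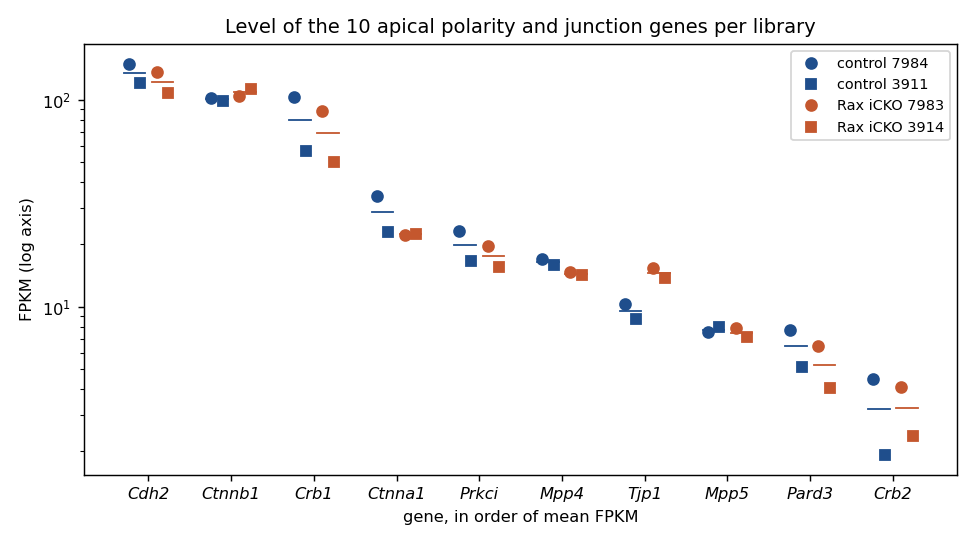
FPKM of the 10 genes (log axis) in each library, with genes ordered by their mean. Points are single mice (circles for mice 7983 and 7984, squares for mice 3911 and 3914), and short lines are group means of 2 mice. The genotypes differ little for most genes, *Tjp1* is higher in both *Rax* iCKO mice, and both circles lie above both squares for *Crb1*, *Crb2*, *Pard3*, *Prkci* and *Cdh2*.

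*Rax*, the targeted gene, was at 189.1 and 181.4 FPKM in the controls and at 111 and 98.4 FPKM in the *Rax* iCKO mice, a log2 fold change of -0.82 with an adjusted p of 1.0 in limma. When mice 7983 and 7984 were set as 1 block and mice 3911 and 3914 as the other, *Rax* was called (limma adjusted p = 0.0223). These values cover the gene as a whole and not the floxed part alone. *Xist*, which coats the inactive X chromosome, had 24.5 and 21.2 FPKM in the controls, whereas the *Rax* iCKO mice had 0.0119 and 0.00605 FPKM (limma adjusted p = 0.0167). The Y-linked genes *Ddx3y*, *Eif2s3y*, *Kdm5d* and *Uty* were all above 0 in *Rax* iCKO mouse 7983 and all listed at 0 in the other 3 libraries, so that mouse 3914 had little of either kind of RNA. The labels do not give the sex of the mice, and *Xist* separates the libraries as the genotype does, so that differences that go with either cannot be told apart. Müller glial markers had the highest sum of the lists, 15908 and 11850 FPKM over 12 genes in control and 10896 and 10678 FPKM in *Rax* iCKO. RNA of other retinal cells was present too. The 7 bipolar cell markers summed to 3077 and 8249 FPKM in control and to 4249 and 6750 FPKM in *Rax* iCKO, with *Pcp2* the most abundant. The 12 rod markers, led by *Sag*, summed to 2332 and 2392 FPKM in control and to 1689 and 1543 FPKM in *Rax* iCKO. Of these rod genes, 9 were lower in both *Rax* iCKO mice than in both controls, as were 14.1% of all genes tested, and none of them was at 0. Cone markers, led by *Gngt2*, summed to between 143 and 200 FPKM in a library, and endothelial markers to between 243 and 490 FPKM, nearly all of it from *Kdr*. Only 2 of the 6 endothelial markers reached a mean of 1 FPKM. Markers of amacrine, horizontal and ganglion cells, microglia, pericytes, astrocytes and pigment epithelium summed to at most 55.1 FPKM each in any library. The most abundant genes of these lists were *Slc6a9*, *Calb1*, *Sncg*, *C1qb*, *Pdgfrb*, *Pdgfra* and *Ttr*. The ganglion cell gene *Pou4f1* and the pigment cell gene *Mlana* were listed at 0 in every library. In sorted bulk cells, fewer cells of a type and less RNA per cell cannot be told apart.

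**Figure D2:**
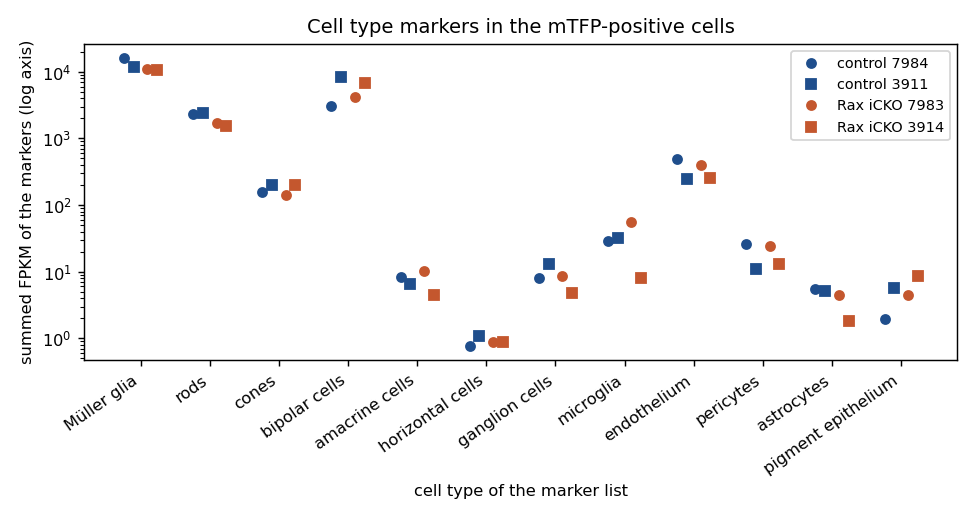
Summed FPKM (log axis) of the marker genes of 12 cell types in each library. Müller glial markers are the highest, bipolar cell markers come next and differ between mice 7984 and 3911 of the same genotype, and rod markers are lower in both *Rax* iCKO mice.

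None of the 10 genes passed the test between genotypes. With limma, a linear model with a variance shared over genes, on log2(FPKM + 1), 0 of 10 had an adjusted p under 0.05, where 0.0243% of all genes did, namely *Xist* and the microRNA gene entries *Mir6538* and *Mir568*. At an unadjusted p under 0.05 there was 1 of the 10, *Tjp1*, against 2.86% of all genes. The median log2 fold change of the 10 was -0.15, and that of all genes tested was -0.004. In 2 genes, *Tjp1* and *Ctnnb1*, both *Rax* iCKO libraries lay above both controls, where 15.4% of all genes did, and in 2, *Mpp4* and *Ctnna1*, both lay below, where 14.1% of all genes did. For the other 6 the genotypes overlapped. With libraries scaled to equal medians, *Ctnnb1* overlapped as well. Leaving out 1 mouse turned the sign of the median, which was 0.04 without control mouse 7984 and 0.02 without *Rax* iCKO mouse 3914, and -0.35 without control mouse 3911. An exact permutation test (two-sided) of 2 mice against 2 cannot give a p under 0.333.

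**Figure D3:**
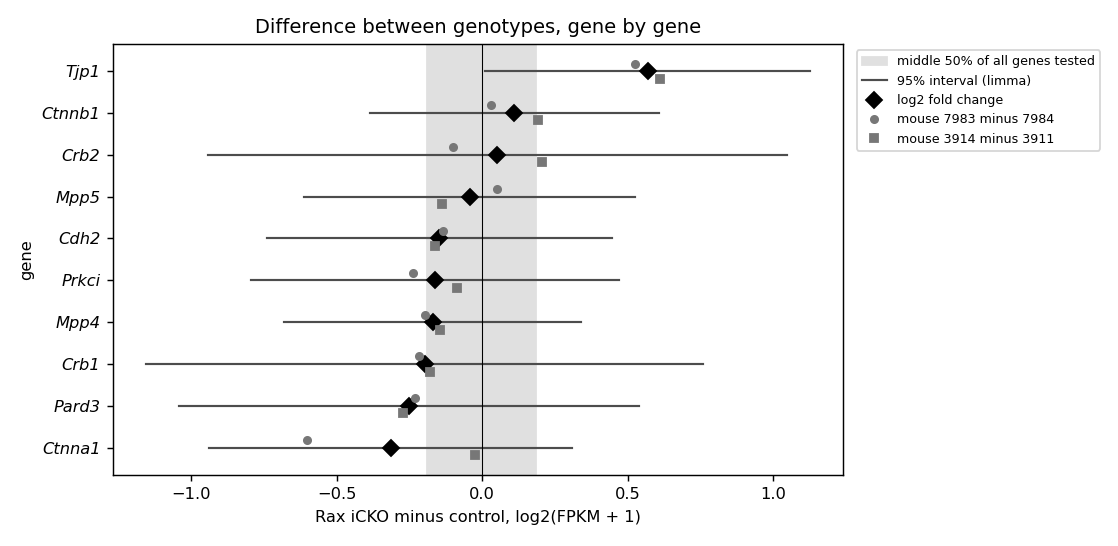
Difference in log2(FPKM + 1) between *Rax* iCKO and control for each gene. Diamonds are the limma log2 fold change (n = 2 mice per group), lines its 95% interval, small symbols the differences between mice 7983 and 7984 and between mice 3914 and 3911, and the band the middle 50% of all genes tested. The interval of *Tjp1* alone lies off 0, from 0.01 to 1.13.

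*Tjp1* encodes ZO-1, a scaffold of tight and adherens junctions that links membrane proteins to actin. In GRCm38, the build of all coordinates here, it occupies bases 65296165 to 65527850 of chromosome 7 (minus strand). The controls had 10.3 and 8.69 FPKM, while the *Rax* iCKO mice had 15.3 and 13.8 FPKM. Both *Rax* iCKO libraries were thus above both controls, with a mean of 14.5 ± 1.07 (SD, n = 2) against 9.50 ± 1.15 (SD, n = 2), a ratio of 1.53. The log2 fold change was 0.57 (standard error 0.23, 95% interval 0.01 to 1.13). Its limma p was 0.0468 before and 1.0 after adjustment over all genes, so the gap, although larger than the spread between mice, did not hold up across the table. Within each run of mouse numbers the difference was alike, 0.53 between mice 7983 and 7984 and 0.61 between mice 3914 and 3911. Under 7 of the 11 alternatives the unadjusted p was 0.05 or more.

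*Crb1*, which encodes the Crumbs protein mutated in human retinal dystrophies, lies on the minus strand of chromosome 1 from 139176649 to 139379316. The controls had 103 and 56.5 FPKM, while the *Rax* iCKO mice had 88.6 and 49.8 FPKM. Within each genotype 1 mouse was high and 1 was low, so that the groups overlapped, with means of 79.8 ± 32.9 (SD, n = 2) for control and 69.2 ± 27.4 (SD, n = 2) for *Rax* iCKO. The log2 fold change of -0.20 had an interval from -1.15 to 0.76 (adjusted p = 1.0 from limma). *Crb2*, the other Crumbs gene of the retina, lies on the plus strand of chromosome 2 from 37776225 to 37799103. The controls had 4.49 and 1.92 FPKM, and the *Rax* iCKO mice 4.12 and 2.36 FPKM. Its *Rax* iCKO values lay between the controls (log2 fold change 0.05, interval -0.94 to 1.05). An opposite-strand gene, *Dennd1a*, shares 1.69% of the exon bases of *Crb2*, and its own level was 35.05 and 16.9 FPKM (control) against 35.7 and 17.5 FPKM (*Rax* iCKO), so that reads of the overlap cannot be told apart if strand was not recorded. *Crb3*, the epithelial Crumbs gene, had at most 0.576 FPKM in a library.

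The promoter windows of *Crb1* and *Tjp1* are shown because they belong to the most abundant Crumbs gene and to the gene with the largest log2 fold change, in size, of the 10. They run from 250 bases before to 50 after a RefSeq start of GRCm38.p6, read 5′ to 3′ along the gene, and lie at chr1:139377027-139377326 and chr7:65371195-65371494, both on the minus strand. Capitals mark TAATT, the sequence that the study names as the predicted Rax site, on either strand, where it reads AATTA on the reverse.

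Crb1: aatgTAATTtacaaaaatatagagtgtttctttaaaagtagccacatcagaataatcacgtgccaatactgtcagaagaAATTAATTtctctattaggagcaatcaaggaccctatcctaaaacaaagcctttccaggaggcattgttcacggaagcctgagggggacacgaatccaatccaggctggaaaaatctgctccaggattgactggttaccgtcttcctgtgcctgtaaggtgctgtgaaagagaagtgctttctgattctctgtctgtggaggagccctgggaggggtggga

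Tjp1: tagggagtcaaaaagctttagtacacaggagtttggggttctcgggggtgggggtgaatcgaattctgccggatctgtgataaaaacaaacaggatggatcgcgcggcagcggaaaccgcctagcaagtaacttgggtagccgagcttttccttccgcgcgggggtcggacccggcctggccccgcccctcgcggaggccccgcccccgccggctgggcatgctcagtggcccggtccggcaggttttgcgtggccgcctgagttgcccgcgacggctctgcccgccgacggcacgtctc

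In the *Crb1* window the motif occurred 3 times, at -246, -171 and -168 from the start, and the last pair overlap. The *Tjp1* window held none. Both windows lie inside their genes, which extend upstream to 139379316 (*Crb1*) and 65527850 (*Tjp1*), and no other start of either gene was searched. Of the 10 genes, 7 had a promoter window in this count, and 2 of these, *Crb1* and *Prkci*, held the motif, the latter once at -190. *Mpp5* was not matched, and windows on chromosome 18, which holds *Cdh2* and *Ctnna1*, were left out of the count. Among all 32851 promoter windows of this length, 27.0% held TAATT on either strand, so that a match by itself is common. The *Crb1* window is 44.3% G and C and that of *Tjp1* is 65.3%, with a median of 52.7% over all windows.

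*Mpp5*, also called Pals1, is the guanylate kinase scaffold that binds the Crumbs tail and recruits Patj. It lies on the plus strand of chromosome 12 from 78748882 to 78840714. It varied little, with 7.53 and 7.94 FPKM in the controls and 7.85 and 7.13 FPKM in the *Rax* iCKO mice. The groups overlapped, and the log2 fold change was -0.04 with an interval from -0.61 to 0.53. *Mpp4*, a related scaffold best known from photoreceptors, lies on the minus strand of chromosome 1 from 59120935 to 59163389. The controls had 16.9 and 15.8 FPKM, and the *Rax* iCKO mice 14.7 and 14.2 FPKM. Both *Rax* iCKO values were lower than both controls, with means of 16.4 ± 0.80 (SD, n = 2) and 14.4 ± 0.322 (SD, n = 2), but the log2 fold change of -0.17 did not pass the test (interval -0.68 to 0.34, adjusted p = 1.0 from limma). Rod markers moved the same way, with 9 of 12 lower in both *Rax* iCKO libraries, where 14.1% of all genes tested were. Their summed levels were 1543 to 1689 FPKM in *Rax* iCKO against 2332 to 2392 FPKM in control, none of the 12 being at 0. Of the 12 Müller glial markers 3 were lower in both, and of the 8 cone markers 0. The part of these cells in the *Mpp4* values was not tested.

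*Pard3* encodes Par3, the scaffold that assembles the Par complex at the junction, and lies on the plus strand of chromosome 8 from 127063381 to 127612286. Its level was 7.75 and 5.11 FPKM in the controls, and 6.45 and 4.07 FPKM in the *Rax* iCKO mice. *Prkci* encodes an atypical protein kinase C, the enzyme of that complex, and lies on the plus strand of chromosome 3 from 30995742 to 31052740. Here the controls had 23.3 and 16.6 FPKM, and the *Rax* iCKO mice 19.6 and 15.6 FPKM. For both genes the genotypes overlapped, with *Rax* iCKO mouse 7983 above control mouse 3911. The log2 fold changes were -0.25 (interval -1.04 to 0.54) for *Pard3* and -0.16 (interval -0.79 to 0.47) for *Prkci*.

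*Cdh2*, which encodes N-cadherin, the adhesion molecule of the outer limiting membrane, lies on the minus strand of chromosome 18 from 16588877 to 16809246. The controls had 149 and 120.3 FPKM, while 136 and 107 FPKM were measured in the *Rax* iCKO mice. The groups overlapped, with means of 135 ± 20.5 (SD, n = 2) and 122 ± 20.2 (SD, n = 2) and a log2 fold change of -0.15 (interval -0.74 to 0.45). *Ctnnb1* encodes β-catenin, which binds the cadherin tail and also acts in Wnt signaling, and lies on the plus strand of chromosome 9 from 120933400 to 120960507. Control levels were 102 and 98.5 FPKM, and *Rax* iCKO levels 104 and 113 FPKM. The *Rax* iCKO values were the higher pair by a small margin (log2 fold change 0.11, interval -0.39 to 0.61), with 0.054 without *Rax* iCKO mouse 3914, 0.17 without *Rax* iCKO mouse 7983 and 0.22 after quantile normalization. *Ulk4*, on the opposite strand, shares 14.6% of the exon bases of *Ctnnb1* and was at 1.30 to 2.36 FPKM, and here too reads of the overlap cannot be told apart if strand was not recorded. *Ctnna1* encodes αE-catenin, which couples β-catenin to actin, and lies on the plus strand of chromosome 18 from 35118902 to 35254776. Control levels were 34.3 and 22.9 FPKM, and *Rax* iCKO levels 22.3 and 22.4 FPKM. Control mouse 7984 stood above the other 3 libraries, which lay within a narrow range. The log2 fold change was -0.31 (interval -0.94 to 0.31, adjusted p = 1.0 from limma). It was -0.03 without control mouse 7984 and -0.60 without control mouse 3911.

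Ratios of partner genes within a library do not depend on how that library was scaled, and 5 were compared. *Crb2* stood at 0.0436 and 0.0340 of the *Crb1* FPKM in the controls and at 0.0465 and 0.0475 in the *Rax* iCKO mice, a higher ratio in both *Rax* iCKO libraries by 0.29 on the log2 scale, or by 0.11 without control mouse 3911 and 0.47 without control mouse 7984. *Ctnna1* stood at 0.337 and 0.232 of the *Ctnnb1* FPKM in the controls, against 0.214 and 0.199 in *Rax* iCKO, which was lower in both *Rax* iCKO libraries. That difference was -0.44 on the log2 scale, but -0.17 without control mouse 7984 and -0.71 without control mouse 3911. These ratios had an exact permutation p of 0.333 each, the smallest possible, and 0.667 after Benjamini-Hochberg adjustment over the 5. The ratios of *Mpp5* to *Mpp4*, *Ctnnb1* to *Cdh2* and *Pard3* to *Prkci* overlapped between genotypes.

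The libraries differed more by mouse number than by genotype for a part of the genes. In 5 of the 10, *Crb1*, *Crb2*, *Pard3*, *Prkci* and *Cdh2*, both mice of the 7983 and 7984 run lay above both mice of the 3911 and 3914 run, where 26.8% of all genes did, and in 0 of the 10 both lay below, where 29.1% of all genes did. The mean FPKM of mice 7983 and 7984 was 1.80 times that of mice 3911 and 3914 for *Crb1*, 2.01 times for *Crb2* and 1.55 times for *Pard3*. It was 1.33 times for *Prkci* and 1.25 times for *Cdh2*. *Mpp4*, *Mpp5* and *Ctnnb1* had ratios between 0.975 and 1.05. For *Crb1* the difference between the runs, 0.84 in log2(FPKM + 1), was larger than the difference between genotypes of -0.20. Each run holds 1 mouse of each genotype, and the labels do not say what the numbers mark. Markers moved with the run as well. Of the 12 Müller glial markers, 8 were higher in both mice 7983 and 7984 and none was lower in both, with sums of 15908 FPKM in mouse 7984 and 10896 FPKM in mouse 7983 against 11850 FPKM in mouse 3911 and 10678 FPKM in mouse 3914, and none at 0. Of the 7 bipolar cell markers, 4 were lower in both, with sums, in the same order of mice, of 3077 and 4249 FPKM against 8249 and 6750 FPKM, and none at 0. Their part in the values of *Crb1* and the other genes was not tested.

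**Figure D4:**
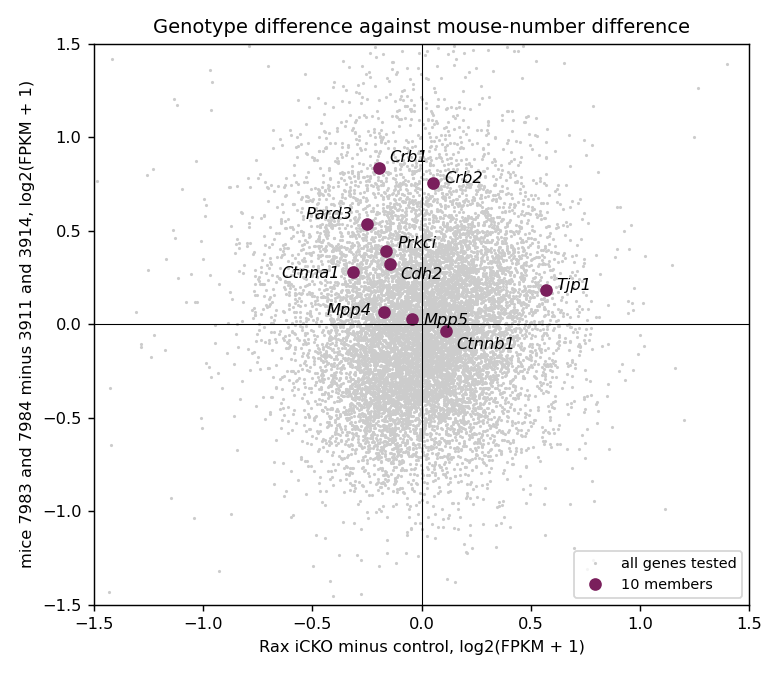
Difference between genotypes (x axis) and between the runs of mouse numbers (y axis), both in log2(FPKM + 1), for the 10 genes and for all genes tested (gray, with 177 genes beyond the axes not drawn). *Crb1*, *Crb2* and *Pard3* lie high on the y axis, at -0.20, 0.05 and -0.25 on the x axis, whereas *Tjp1* lies at 0.57 on the x axis.

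Of the wider machinery, 6 lists written from general knowledge held 69 genes with the 10 above, of which 62 were tested. None passed an adjusted p of 0.05 in either direction, and their median log2 fold change was -0.04. In 5 of the 62 both *Rax* iCKO libraries lay above both controls and in 8 below, where 15.4% and 14.1% of all genes did. In 37 of the 62 both mice 7983 and 7984 lay above the other run, where 26.8% of all genes did. Among the 12 tested genes of the Crumbs complex the median was 0.04, with *Crb1* the most abundant. *Lin7a*, a small scaffold of that complex, was at 37.1 and 60.2 FPKM in the controls, against 59.3 and 73.3 FPKM in *Rax* iCKO, and *Mpp3*, another guanylate kinase scaffold, at 20.1 and 22.2 against 23.4 and 26.8 FPKM. *Mpp3* alone of the 12 was higher in both *Rax* iCKO mice and *Mpp4* alone lower in both. Among 8 genes of the Par complex the median was -0.06. Its most abundant gene, *Cdc42*, a small GTPase that activates the complex, was at 346 and 486 FPKM in the controls, against 330 and 385 FPKM in *Rax* iCKO. *Pard6a* was at 34.9 and 44.9 FPKM in the controls, against 42.0 and 60.4 FPKM in *Rax* iCKO, with overlap, and *Pard6g* at 8.19 and 8.38 against 7.84 and 5.91 FPKM.

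The 4 genes of the Scribble module, which marks the membrane below the junction, had a median of 0.10. *Llgl1* was the most abundant, at 38.7 and 19.4 FPKM in control and 24.1 and 19.5 FPKM in *Rax* iCKO, and *Scrib* was at 2.32 and 0.725 against 2.22 and 1.52 FPKM. The 16 tested adherens junction genes had a median of -0.02. *Ctnnbip1*, an inhibitor of β-catenin, was at 74.5 and 65.7 FPKM in the controls, against 50.5 and 57.4 FPKM in *Rax* iCKO, and *Pvrl1*, which encodes nectin-1, was at 6.41 and 2.90 against 10.3 and 4.97 FPKM. *Cdh1*, the epithelial cadherin, was listed at 0 in every library. The 9 tested tight junction genes had a median of 0.07, and in 3 of them, *Tjp1*, *Magi1* and *Cgnl1*, both *Rax* iCKO libraries lay above both controls, as in 15.4% of all genes. *Magi1*, a junction scaffold, was at 9.65 and 9.27 FPKM in the controls, against 12.04 and 18.2 FPKM in *Rax* iCKO (log2 fold change 0.60 ± 0.27, SE; limma adjusted p = 1.0). *Cgnl1* was at 2.41 and 2.70 against 3.08 and 3.78 FPKM. *Jam3*, the most abundant of this list, was at 78.2 and 55.0 FPKM in the controls, against 59.4 and 55.6 FPKM in *Rax* iCKO.

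Genes of the apical process and its actin linkers had the lowest median of the 6 lists, -0.33, with 12 of 13 log2 fold changes below 0, as were 50.8% of those of all genes tested. Taken within a run of mouse numbers, the median difference of *Rax* iCKO from control was -0.39 in the 7983 and 7984 pair and -0.34 in the 3914 and 3911 pair, while over all genes tested it was -0.01 and 0.00. Still, 0 of the 13 had an adjusted or an unadjusted p under 0.05 from limma, and 3 were lower in both *Rax* iCKO mice than in both controls, where 14.1% of all genes were. *Slc9a3r1*, which encodes the ezrin-binding scaffold NHERF1, was at 57.6 and 43.2 FPKM in the controls, against 38.0 and 30.5 FPKM in *Rax* iCKO (log2 fold change -0.54 ± 0.24, SE; limma adjusted p = 1.0). *Prom1*, a protein of membrane protrusions, was at 27.2 and 23.4 against 20.0 and 18.3 FPKM. *Actg1*, the most abundant gene of the list and a cytoplasmic actin, was at 1873 and 1462 FPKM in the controls, against 1477 and 1142 FPKM in *Rax* iCKO. The lowest log2 fold change of the list, -0.97, belonged to *Cd44*, an adhesion receptor of Müller glial apical villi named for this value, and its FPKM was 50.6 in control mouse 7984 but 12.1 in control mouse 3911, against 16.2 and 9.26 in *Rax* iCKO. The same direction was seen in markers of several cell types. Müller glial markers were below 0 in 11 of 12 (median -0.31, 3 of 12 lower in both *Rax* iCKO mice). Rod markers were below 0 in 12 of 12 (median -0.56) and microglial markers in 6 of 7 (median -0.29). For ganglion cells it was 3 of 3 markers (median -0.38) and for cones 5 of 6 (median -0.09). Against this, 1 of 7 bipolar cell markers was below 0 (median 0.36). Cell types with fewer than 3 tested markers are not given. The part of rod or Müller glial RNA in the values of this list was not tested.

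**Figure D5:**
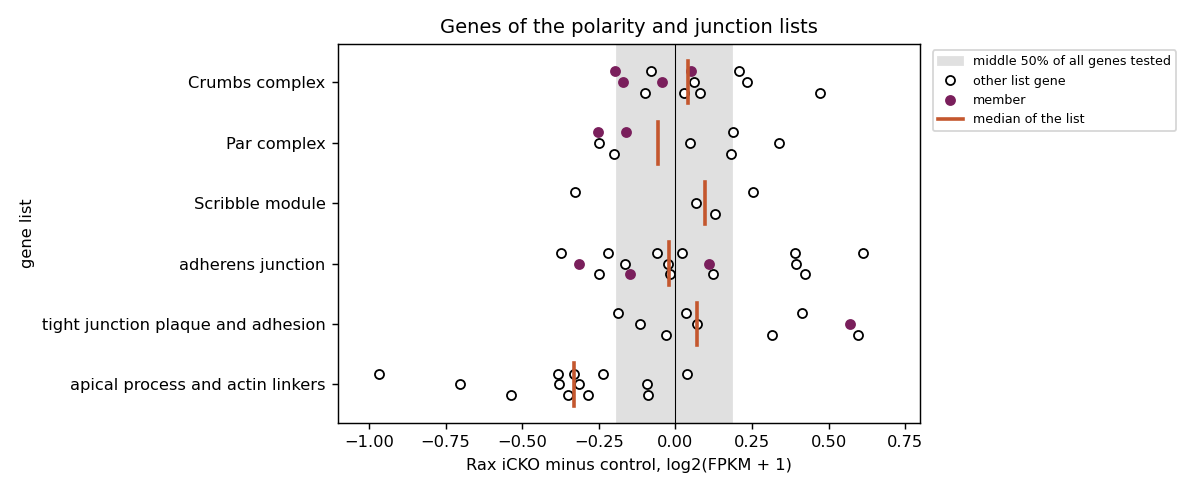
Log2 fold changes, as the difference in log2(FPKM + 1) between *Rax* iCKO and control, of the tested genes in 6 lists. Filled points are the 10 genes described above, open points the other genes, bars the medians, and the band the middle 50% of all genes tested. The bar of the apical process and actin linkers lies at -0.33, and those of the other lists lie between -0.06 and 0.10.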

How the data were processed

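Single-end reads were aligned by the authors to mm10 (TopHat, Bowtie2, SAMtools), and the deposited files hold an FPKM for every gene symbol, from Cufflinks by the study's methods and Cuffdiff by the submitters' notes. The annotation and the strand setting of the counting are not given in the sources used here. No counts are given, and whether the FPKM were also scaled across libraries is not given in the sources used here. Read numbers assume that they were not and are estimates from the steps of low values (587 genes with 1 GENCODE transcript) and carry an unknown error.

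Groups followed the genotype labels. limma 3.58.1 in R 4.3.3 (lmFit, eBayes with a trend) was run on log2(FPKM + 1), restricted to gene symbols whose 4 libraries averaged 1 FPKM or more, and p-values were adjusted over all of these by Benjamini-Hochberg. The fold changes understate those of genes with low FPKM. The steps were tested on simulated data, in which large changes were recovered, smaller ones were not simulated, and more unchanged genes were called than the threshold allows. Exact permutation tests compared ratios. The labels do not name litters. The members and lists were chosen with earlier results of these data known. Named beyond the members were *Rax* and, in each list, the most abundant gene, genes at 0 and the 2 other genes with the smallest p. *Crb3*, *Cd44*, the genes that limma called and the Y-linked genes were added after their values were seen. So were *Dennd1a* and *Ulk4*, from among the genes that overlap a member on the opposite strand. Alternatives were another pseudocount, filters, scalings, no variance trend, a block by mouse number and leaving out each mouse.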

Additional observations from a re-analysis of the deposited data

How the results depend on the processing

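None of the 10 genes had an adjusted p under 0.05 from limma under any of the 11 alternatives, and the direction of each was the same under the 7 that kept all 4 libraries (*Crb2*, with a mean under 5 FPKM, was not tested at the stricter filter). Quantile normalization gave log2 fold changes of 0.019 for *Crb2*, -0.094 for *Mpp5*, -0.027 for *Cdh2* and 0.22 for *Ctnnb1*. Leaving out 1 mouse turned the sign of 6 log2 fold changes, which ranged from -0.63 to 0.23 for *Crb1*, -0.40 to 0.51 for *Crb2*, -0.10 to 0.019 for *Mpp5*, -0.53 to 0.027 for *Pard3*, -0.39 to 0.072 for *Prkci* and -0.32 to 0.021 for *Cdh2*. *Tjp1* stayed between 0.46 and 0.68, with an unadjusted limma p of 0.0544 to 0.240. With all 4 libraries its unadjusted p was 0.0391 to 0.0515, and with a replicate block by the run of mouse numbers 0.00696 (adjusted p = 0.145, the lowest of its alternatives, which reached 1.0). The number of the 10 genes without overlap between genotypes was 4 with all 4 libraries and ranged from 4 to 9 when 1 mouse was left out. It was 9 when either control mouse 3911 or *Rax* iCKO mouse 7983 was dropped, and 4 when mouse 3914 was. A lone library can be passed more easily. No share over all genes is given for these settings, so the numbers cannot be set against a background. Over all genes limma called 3, *Xist*, *Mir6538* and *Mir568*. It called 0 without a filter (624 at an unadjusted p under 0.05), 0 at a mean of at least 5 FPKM (279 unadjusted), 6 with equal medians, 71 with the block, *Rax* among them (adjusted p = 0.0223), and 17 to 20 without 1 mouse, where the lone library is assumed to vary like the others. The run difference in *Rax* iCKO and that in control correlated at 0.50 across genes, but 2 pairs do not settle a pairing. With 2 mice per group, the 95% intervals of the 10 genes reached 0.50 to 0.99 log2 units to either side of the estimate.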
